A study of Mus musculus with 2 samples.

Results

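The olfactory receptor gene clusters of mouse chromosomes 2, 9 and 7 were examined for binding of Tdg in embryonic stem cells. They were defined as 3 intervals of the build mm9, chromosome 2 from 85600000 to 89900000, chromosome 9 from 38000000 to 39900000 and chromosome 7 from 111100000 to 112300000, and a peak was a member when it overlapped an interval by at least 1 bp. Of the 72970 peaks in the deposited list, 15 were members, 4 on chromosome 2, 5 on chromosome 9 and 6 on chromosome 7. The series comprised 2 ChIP-seq libraries of the mouse embryonic stem cell line E14, from cells labelled Bio-Tdg (n = 1), which are taken to carry a biotin-tagged Tdg, and from cells labelled as BirA mock (n = 1). Only the Bio-Tdg library had a peak list here, so no mock level can be set beside any value and no value has a replicate error. No genotype, treatment or passage is given in the labels for either library. All intervals in brackets are exact 95% Poisson or binomial intervals, which cover counting error alone and are too narrow where peaks bunch together.

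Olfactory receptors, the products of the Olfr genes, are odorant-sensing G protein-coupled receptors of the nose. Their genes are short, have a coding sequence without introns, and lie in long tandem arrays. A mature olfactory neuron expresses a single allele of a single receptor gene, and outside such neurons the arrays are as a rule transcriptionally silent. Tdg, thymine DNA glycosylase, removes certain oxidised forms of methylcytosine during active demethylation. It is known in embryonic stem cells from CpG-rich promoters and from enhancers. Expression was not measured in this series, so silence of the clusters in these cells is background and not a result.

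The Olfr genes of these chromosomes had very few CG dinucleotides, the substrate sequence of DNA methylation, at their annotated starts. In the RefSeq table of GRCm38.p6, 656 of the 1110 protein-coding Olfr genes lie on chromosomes 2, 7 and 9, with 287, 239 and 130 genes. A sequence of 300 bases, from 250 before to 50 after the annotated start, was matched by symbol for 561 of the 656, in 564 windows. The letters CG, which read the same on both strands, occurred a median of 1 time per window (quartiles 0 and 2, highest 8), against a median of 14 (quartiles 4 and 24, highest 65) in 4587 windows of the other protein-coding genes of the same chromosomes. None of the 564 Olfr windows held 10 or more CG, against 59.1% of the other windows, and 34.9% held no CG at all, against 3.18%. The number of CG relative to that given by the C and G content had a median of 0.106 in Olfr windows and 0.590 in the others, and the median GC content was 34.3% against 57.0%. The medians for chromosomes 2, 9 and 7 were each 1 CG per window. In 410 of the 564 Olfr windows the start codon ATG stands at the annotated start itself, against 259 of the 4587 others. Most of the Olfr windows thus hold 250 bases upstream of the start codon and 50 bases that begin with it. They need not be the promoter in use, and a CG counted there can lie in the coding sequence. In the 154 Olfr windows without ATG at the annotated start, the median was also 1 CG.

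The following windows give examples in letters, 5′ to 3′, with each CG in capitals. The first 3 are Olfr genes with the median number of CG on chromosomes 2, 9 and 7, Olfr976 has the most on chromosomes 2, 7 and 9, and Ptprj, a receptor tyrosine phosphatase gene chosen after its values were seen, is the gene that follows the longest run of Olfr genes on chromosome 2. They are RefSeq sequences of GRCm38.p6, Olfr1000 at chr2:85608859-85609158 on the minus strand, Olfr25 at chr9:38329242-38329541 on the plus strand, Olfr1348 at chr7:6502175-6502474 on the minus strand, Olfr976 at chr9:39960995-39961294 on the minus strand and Ptprj at chr2:90580546-90580845 on the minus strand. These positions are in another build than the peaks and cannot be set beside them.
Olfr1000: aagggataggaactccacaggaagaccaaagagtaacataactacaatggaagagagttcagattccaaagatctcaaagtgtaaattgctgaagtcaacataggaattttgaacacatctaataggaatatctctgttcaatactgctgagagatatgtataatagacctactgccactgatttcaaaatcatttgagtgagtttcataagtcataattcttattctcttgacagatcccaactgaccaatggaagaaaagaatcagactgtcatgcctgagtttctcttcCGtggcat
Olfr25: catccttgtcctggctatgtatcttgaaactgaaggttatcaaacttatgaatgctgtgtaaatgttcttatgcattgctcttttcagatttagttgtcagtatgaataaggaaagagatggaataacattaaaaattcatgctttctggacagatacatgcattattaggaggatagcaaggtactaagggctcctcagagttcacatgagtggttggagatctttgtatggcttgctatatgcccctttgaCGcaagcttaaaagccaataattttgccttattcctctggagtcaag
Olfr1348: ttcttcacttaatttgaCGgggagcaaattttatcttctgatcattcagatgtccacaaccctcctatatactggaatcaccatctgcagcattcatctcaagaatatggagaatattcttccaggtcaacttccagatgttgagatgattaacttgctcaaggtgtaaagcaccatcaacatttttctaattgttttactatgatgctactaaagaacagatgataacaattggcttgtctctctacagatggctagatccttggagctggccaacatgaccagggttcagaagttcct
Olfr976: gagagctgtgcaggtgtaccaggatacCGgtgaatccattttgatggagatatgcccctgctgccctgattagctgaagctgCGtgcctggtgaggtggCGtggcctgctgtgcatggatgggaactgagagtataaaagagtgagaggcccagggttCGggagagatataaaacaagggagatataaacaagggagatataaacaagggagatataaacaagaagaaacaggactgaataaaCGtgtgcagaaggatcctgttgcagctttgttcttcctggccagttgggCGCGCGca
Ptprj: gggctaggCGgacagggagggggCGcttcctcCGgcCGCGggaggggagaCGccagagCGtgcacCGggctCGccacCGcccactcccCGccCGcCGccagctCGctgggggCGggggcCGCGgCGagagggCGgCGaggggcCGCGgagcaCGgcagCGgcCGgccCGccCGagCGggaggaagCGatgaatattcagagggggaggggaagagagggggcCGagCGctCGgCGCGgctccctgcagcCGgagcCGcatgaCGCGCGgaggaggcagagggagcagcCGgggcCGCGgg
The 3 typical Olfr windows hold 1 CG each, Olfr976 holds 8 and this start of Ptprj holds 42, while a second annotated start of Ptprj has 6. Ptprj is not typical of genes next to the longest runs, since Pramel6, before the same run, has 3 CG and Ovch2, before the longest run of chromosome 7, has 2. Nor is its printed start typical of the other protein-coding genes of these chromosomes, whose windows had a median of 14 CG and an upper quartile of 24. The printed contrast is thus larger than the usual difference. Olfr1348 belongs to a short run of 8 Olfr genes beside Zim1 and stands for the Olfr genes of chromosome 7, not for the interval studied there.

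**Figure D1:**
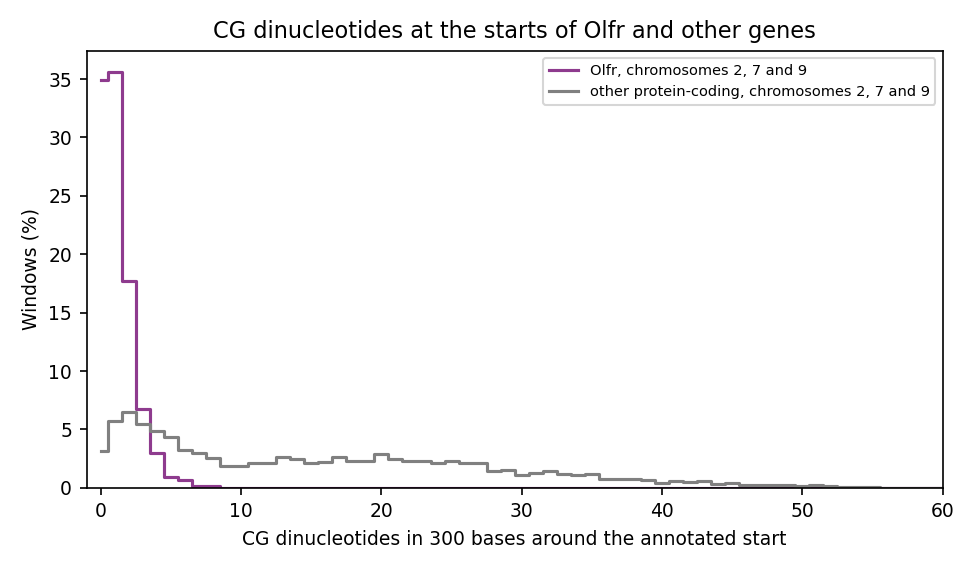
Share of 300-base windows (y axis, percent) by their number of CG dinucleotides (x axis), for 564 windows of Olfr genes and 4587 windows of other protein-coding genes on chromosomes 2, 7 and 9, from RefSeq sequence of GRCm38.p6. The Olfr windows pile up at 0 to 2 CG and end at 8, where the other genes spread to 65, of which the axis shows 0 to 60.

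In the order of RefSeq protein-coding genes, Olfr genes stood next to each other in runs of up to 123 genes. That run, on chromosome 2, went from Olfr153 to Olfr1274 and lay between Pramel6 and Ptprj, with another run of 93, Olfr996 to Olfr1126, just before Pramel7. On chromosome 9 the longest run had 40 genes, Olfr160 to Olfr919, between Panx3 and Vwa5a. On chromosome 7 the Olfr genes were more broken up. The longest run there had 42 genes, Olfr467 to Olfr519, between Ovch2 and Nlrp10. Runs of 25 and 16 Olfr genes flanked the beta-globin genes, from Olfr605 to Olfr67 before Hbb-bt and from Olfr66 to Olfr646 after Hbb-y, and genes of the Ubqln and Trim families followed. These last runs fall outside the rule for named genes and were chosen after the values were seen. Which genes lie within the mm9 intervals was not checked, since no mm9 annotation was used.

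All 3 clusters held fewer Tdg peaks for their length than the rest of their chromosomes. The chromosome 2 cluster, the longest at 4.3 Mb, had 4 peaks where 149 would match the rest of the chromosome. Its density was 0.930 peaks per Mb (0.253 to 2.38) against 34.6 per Mb (33.7 to 35.5), or 37.2-fold lower (14.5 to 137). The chromosome 9 cluster of 1.9 Mb had 5 peaks where 64.7 would match, 2.63 per Mb (0.854 to 6.14) against 34.1 (33.0 to 35.1), or 12.9-fold lower (5.54 to 39.9). The chromosome 7 cluster of 1.2 Mb had 6 peaks where 40.4 would match, 5.00 per Mb (1.83 to 10.9) against 33.7 (32.7 to 34.6), or 6.73-fold lower (3.09 to 18.4). Compared with each other, the chromosome 7 cluster had 5.38 times the density of that of chromosome 2 (1.27 to 25.9), but 4.48 times (0.964 to 22.6) when peaks less than 5 kb apart were merged. The ratio of chromosome 9 to 2 was 2.83 (0.609 to 14.3) and that of chromosome 7 to 9 was 1.90 (0.483 to 7.87). These 3 comparisons were added after the values were seen and are not adjusted for their number.

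Together the clusters held 15 peaks in 7.4 Mb, 2.03 per Mb (1.13 to 3.34), where the 3 chromosomes would give 254. The ratio of 0.0591 (0.0331 to 0.0974) rested in part on chromosome 2, and without that cluster it was 0.105. Chromosome X had 4.45 peaks per Mb (4.13 to 4.79), against 30.0 per Mb over the 19 autosomes. The clusters together had 0.456 times the density of chromosome X (0.254 to 0.757). The copy number of chromosome X in these cells was not taken into account, so it is not a like-for-like level for autosomal clusters. Peaks covered 0.0560% of the sequence in the chromosome 2 cluster, 0.180% in that of chromosome 9 and 0.463% in that of chromosome 7, against 3.75%, 3.64% and 3.76% of the rest of those chromosomes. Of 74 bins of 100 kb within the clusters, 11 were touched by a peak (14.9%), against 2697 of 4413 bins (61.1%) elsewhere on the 3 chromosomes.

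Windows with as few peaks as the cluster were rare on chromosomes 2 and 9 and common on chromosome 7. Window length and peak limit both differed between the chromosomes, so the shares below are not like for like between them. Windows as long as each cluster were laid end to end outward from it to the first and last peak of the chromosome. On chromosome 2, 0 of 40 windows (0%) held 4 peaks or fewer. The median window had 97 peaks, and the emptiest, 94200001 to 98500000, had 7. On chromosome 9, 1 of 62 windows (1.61%) held 5 peaks or fewer, namely 11400001 to 13300000 with 2, and the median was 60.5. On chromosome 7, 35 of 122 windows (28.7%) held 6 peaks or fewer, 18 of them had none, and the median was 20. The count on chromosome 7 was therefore low for the chromosome average but lay within the common range of windows of 1.2 Mb, and without the empty windows, which were not checked against assembly gaps, the share was 16.3%. Other Olfr genes of these chromosomes were not removed from the windows or from the rest of the chromosomes. How many windows hold such genes was not counted.

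**Figure D2:**
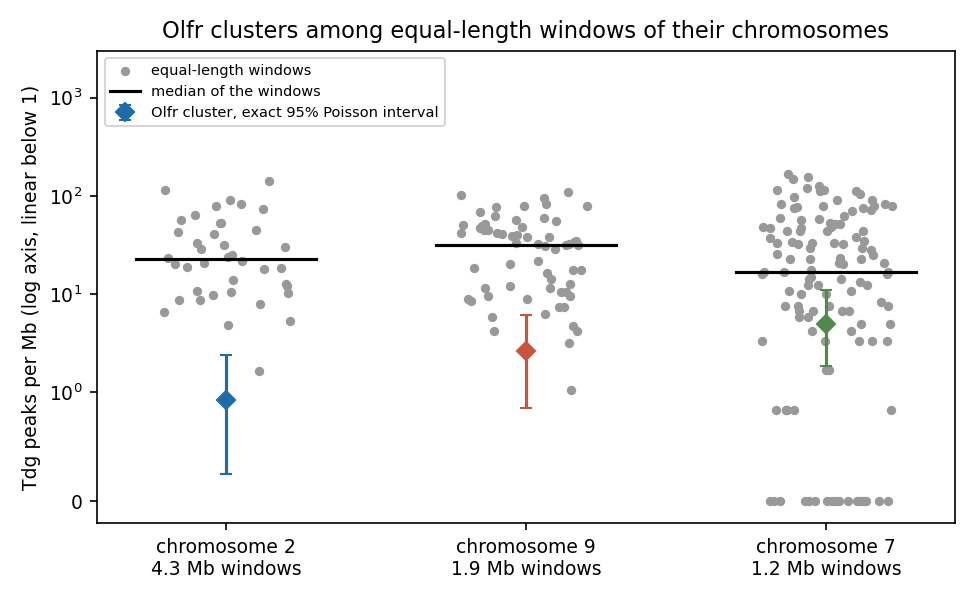
Tdg peaks per Mb (y axis, logarithmic above 1 and linear below) in each Olfr cluster (diamonds, with exact 95% Poisson intervals) and in windows of the same length on the same chromosome (grey points, black line at the median). The diamond of chromosome 2 lies below all 40 windows, that of chromosome 9 lies above 1 of 62, and that of chromosome 7 lies level with or above 35 of 122.

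The sparse sequence extended beyond the intervals, on chromosome 2 on both sides. There, the 500 kb on the low-coordinate side held no peak, and the next 500 kb held 36. On the high-coordinate side the corresponding numbers were 6 and 27. The 1 Mb flanks together had 37.1 times the density of the cluster (13.8 to 140), while the 500 kb flanks had 6.45 times (1.53 to 31.1). The nearest outside peaks were 507 kb below and 410 kb above the interval, both with low scores of 275 and 288. The ends of the intervals were not matched to the ends of the Olfr arrays, so the flanks of each cluster may hold further Olfr genes.

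On chromosome 9 the 500 kb flanks held 2 and 15 peaks and the 500 kb beyond them 32 and 29. The 1 Mb flanks had 14.8 times the density of the cluster (6.09 to 46.9), and the 500 kb flanks 6.46 times (2.29 to 22.4). The nearest outside peaks, with scores of 980 and 1895, lay 409 kb below and 99.2 kb above the interval.

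On chromosome 7 the sides differed. The 1 Mb on the low side had no peak, a count that allows up to 3 (one-sided 95% limit), and the 1 Mb on the high side had 24. The nearest peak on the low side lay 1264 kb away and that on the high side 244 kb. The 1 Mb flanks together had 2.40 times the density of the cluster, with an interval that holds 1 (0.956 to 7.18). With flanks of 500 kb and 2 Mb the ratio was 3.0 (1.10 to 9.44) and 2.90 (1.25 to 8.23), so whether the interval holds 1 depends on the flank.

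**Figure D3:**
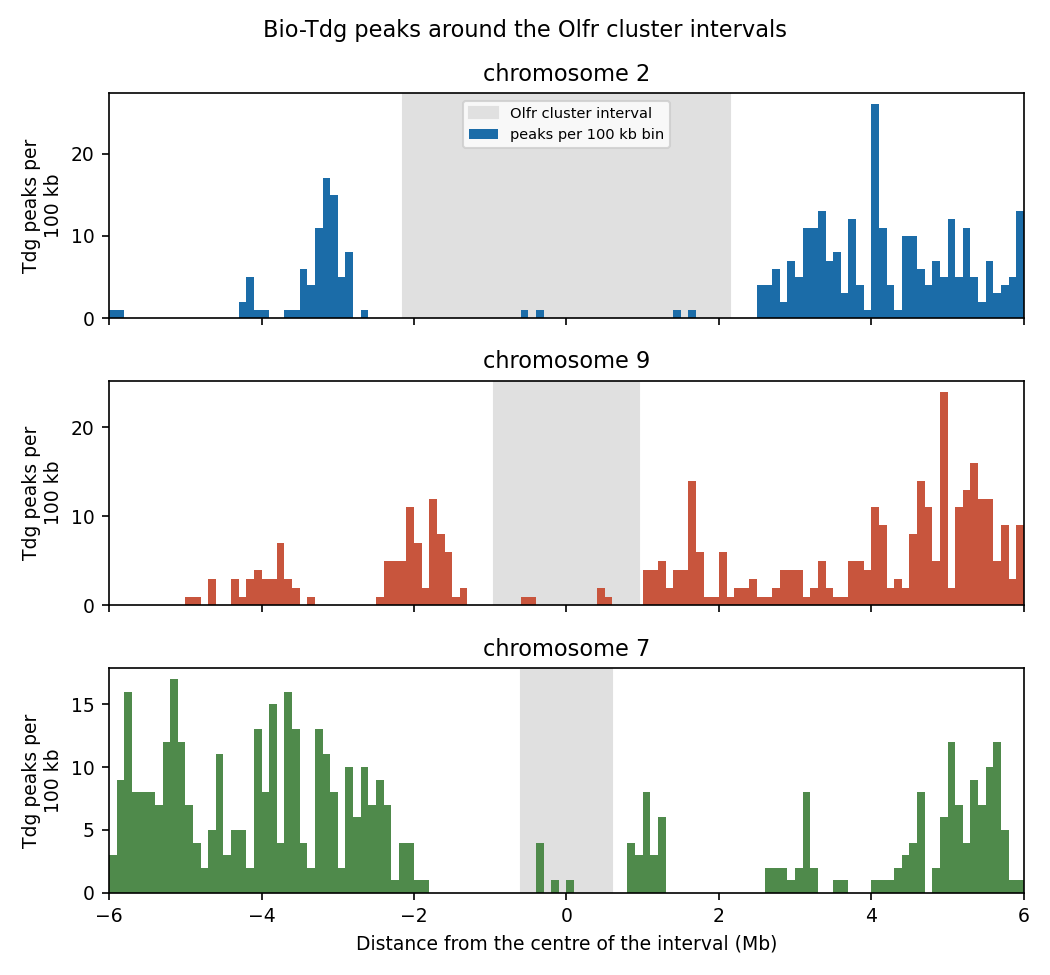
Number of Tdg peaks per 100 kb bin (y axis, bars) against the distance from the centre of each interval in Mb (x axis), with the Olfr cluster shaded. Bins of up to 26 peaks stand on chromosome 2 outside the shaded interval, where 4 bins hold 1 peak each inside it. On chromosome 7 the stretch without peaks runs on beyond the low side of the interval.

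Most of the clusters' sequence lay in a few long stretches without a peak. On chromosome 2 the longest ran from 85093011 to 87233389, at 2.14 Mb, and began outside the interval. It was the third longest on the chromosome and ranked 57 among 72208 such stretches on the autosomes, whose median was 6.08 kb. A second stretch, wholly inside the cluster from 87375563 to 89244578, measured 1.87 Mb and ranked 5 on the chromosome. On chromosome 9 the longest ran from 38527079 to 39409837, at 883 kb, and ranked 12 on its chromosome. On chromosome 7 the longest ran from 109836388 to 111348103, at 1.51 Mb, and ranked 13, but only 248 kb of it lay inside the interval. The longest part inside that interval was 504 kb, of a stretch of 748 kb that ran out on the high side.

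The 15 peaks inside the clusters were mostly weak. Strength is given by the score, the authors' deposited value per peak, and by the reads read back from score and width. Their median score was 316, against 568 for the other 15074 peaks of chromosomes 2, 7 and 9, and 12 of the 15 (80.0%, 51.9 to 95.7) lay below that value. Their median width was 606 bp against 865 bp. The median was 25 reads against 43 in the 14601 other peaks with recovered reads. Since 25 is the median of the 15, their own share at 25 reads or fewer is fixed by that cut. Of the 14601 others with recovered reads, 3211 (22%) had 25 or fewer. The fewest reads recovered for any peak of the list was 21, and 2261 peaks had no recovered reads. Scores of at least 1000 were reached by 1 of the 15 (6.67%, 0.169 to 31.9) and by 29.3% of the others, which lies inside that interval. Score and width rise together, so these are not separate signs, and no test was made on peaks that share a library.

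**Figure D4:**
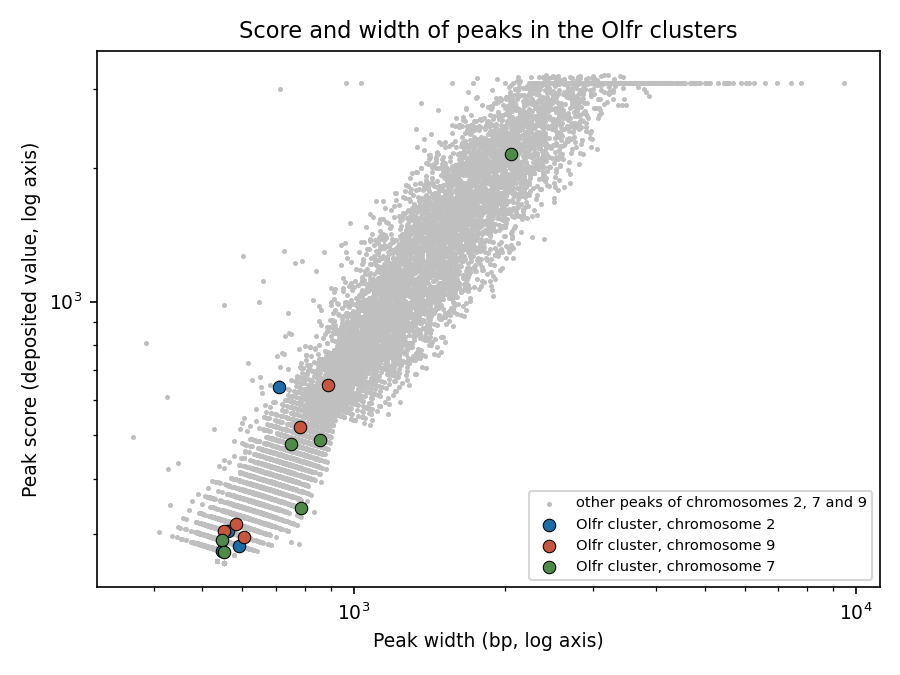
Score (y axis, logarithmic, the authors' deposited value) against width in bp (x axis, logarithmic) for peaks of chromosomes 2, 7 and 9, with the 15 peaks in the Olfr clusters in colour and the other 15074 in grey. The other 14 coloured points lie at scores of 648 or less, below the peak of chromosome 7 at 2142.

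On chromosome 2 the 4 peaks formed 2 loose groups. The first, 87233390 to 87233950, had a score of 304 from 24 reads over 561 bp. It was followed 141 kb on by 87374853 to 87375562, with a score of 643 from 46 reads over 710 bp, which was the strongest of this cluster and stood above 56.4% of the other peaks of the chromosome. The remaining peaks, 89244579 to 89245125 and 89400625 to 89401216, had scores of 275 and 283 from 22 and 23 reads and stood above only 3.36% and 8.82% of the others. Of the 4 peaks, 3 were thus near the lower end of the list, and none reached the third quartile of the chromosome, a score of 1130.

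On chromosome 9 the first peak, 38398597 to 38399202, had a score of 296 from 24 reads. The next, 38526188 to 38527078, had 648 from 49 reads over 891 bp and stood above 56.1% of the other peaks of the chromosome. A close pair followed, 39409838 to 39410618 and 39410869 to 39411451, separated by 250 bp, with scores of 521 and 316 from 40 and 25 reads. The last, 39548101 to 39548653, had a score of 306 from 24 reads. Merged within 1 kb, the pair counts as 1 and the cluster as 4 peaks.

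On chromosome 7 the peaks were bunched near the low side of the interval. Of the 6, 4 lay within 45.4 kb, from 111348104 to 111393488, and held the only strong peak of the 3 clusters, 111366314 to 111368373. That peak had a score of 2142 from 152 reads over 2060 bp, and stood above 89.6% of the other peaks of the chromosome. Its neighbour 111364659 to 111365206, 1.11 kb away, had a score of 291 from 23 reads, and the outer peaks of the group, 111348104 to 111348888 and 111392630 to 111393488, had 344 and 489 from 29 and 39 reads. The other peaks, 111501793 to 111502343 and 111795319 to 111796069, had scores of 274 and 478 from 22 and 37 reads. Genes near these positions were not looked up in mm9, and since runs of Olfr genes on chromosome 7 are interrupted by genes of other families, these peaks are not assigned to Olfr genes.

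Peaks in the clusters were also more isolated. Another peak lay within 50 kb of 6 of the 15 (40.0%, 16.3 to 67.7), 4 on chromosome 7 and the pair on chromosome 9, against 96.0% of the other peaks of the 3 chromosomes. Within 5 kb the share was 4 of 15 (26.7%, 7.79 to 55.1) against 66.8%. A low density by itself widens the spacing. At a score of at least 1000 the clusters of chromosomes 2 and 9 had no peak where 42.8 and 18.1 would match their chromosomes, which allows ratios of up to 0.0701 and 0.166 at 3 peaks, the one-sided 95% limit for a count of 0. The score at which peaks were called and the sequencing depth are not known, so a stretch without a peak shows that none was called there, and binding below that level was not detectable.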

How the data were processed

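Peaks of the Bio-Tdg ChIP-seq library were analysed as deposited. Per the submitters' processing notes, MACS 1.4.1, Bowtie 0.12.7, CASAVA 1.8 and mm9 were involved, in roles that the notes do not state. The sources used here do not give the control, the calling threshold or the treatment of reads that match several places. The last can matter in arrays of similar genes. The deposited score is the authors' value per peak. Reads were read back as the whole number whose Poisson probability, at 1 fitted rate of 1.13 reads per kb, gives the score within 0.01. This worked for 70709 of 70709 peaks at least 400 bp wide with a score below 3000. The step was also tested on scores simulated with the same formula. Such a test checks the arithmetic, not whether the numbers are the true read counts. Densities used the length from first to last peak, with exact 95% intervals. With 1 library there was no test between samples. All 15 member peaks are named, with the longest stretches and nearest outside peaks. Genes named by rule are the ends of the longest Olfr run of each chromosome and the Olfr genes with the median number of CG. Of the genes with the most CG on each chromosome, only Olfr976 is named. Neighbours of the runs and the other runs are named outside that rule. The intervals, lists and settings were chosen with earlier results of these data known. Computations ran in Python 3.11.15 with scipy 1.17.1, numpy 2.4.6, matplotlib 3.10.9 and pandas 2.3.3.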

Additional observations from a re-analysis of the deposited data

How the results depend on the processing

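The alternatives covered membership by midpoint, score limits, merging, bases covered, the widest peaks, trimmed ends, empty bins, the placement of windows and the width of flanks. Of 60 values, 52 stayed within the interval of the value reported, 8 moved outside it, and all density ratios stayed below 1. At a score of at least 1000 the ratio was 0 on chromosomes 2 and 9 and 0.0136 for the 3 clusters together. At a score of at least 500 it was 0.0432 on chromosome 7 and 0.0286 together. Without the cluster of chromosome 2 the ratio together was 0.105. Without empty windows the share on chromosome 7 was 16.3%, and with 500 kb flanks the flank ratio on chromosome 2 was 6.45. The cause of these changes was not tested. Merging within 5 kb gave the highest density ratio in each cluster, 0.0505 on chromosome 2, 0.108 on 9 and 0.251 on 7. For the 3 clusters together it gave 0.0956, below the 0.105 found without the cluster of chromosome 2. Flanks of 500 kb gave 6.46 on chromosome 9. No paired analysis was possible because a single library had peaks to compare. With 15 peaks in all, shares within the clusters are known only within wide intervals.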
